A study of Homo sapiens with 16 samples.

Results

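The zinc finger genes described here are the protein-coding genes of human chromosome 19 whose symbol is ZNF followed by a digit and that had 100 or more reads summed over all 16 libraries. The rule found 249 such genes by name and position, and 183 of them reached the minimum, among 58302 gene identifiers in the counts. The members were thus selected on their summed reads, a measured value, and abundance is given below only as a description. Of the 66 genes under the minimum, 20 had no read in any library and 46 had 1 to 99. Just inside the minimum were ZNF471 with 104 reads and ZNF442 with 110, and just outside were ZNF814 with 99 and ZNF492 with 78. The members had 104 to 24774 reads, with a median of 632, and 122 of the 183 had fewer than 1000, so that many single-gene comparisons rest on few reads.

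The counts come from RNA-Seq of HEK293 cells, an established human embryonic kidney line, and address how loss of the RNA-binding protein Gemin5 affects which mRNAs are on polysomes. The siRNAG5 cells were transfected with 100 nM of a small interfering RNA (siRNA), which targets mRNAs of matching sequence for cleavage, against Gemin5. The Ctrl cells are labelled as untreated, whereas the methods of the study describe a control siRNA, so that the Ctrl cells are known only to lack the Gemin5 siRNA. Cytoplasmic RNA (Input) and RNA of pooled polysomal gradient fractions (Polysome) were each sequenced from 4 independent cultures per treatment, as polyadenylated RNA with a stranded kit, which gave the groups Input Ctrl, Input siRNAG5, Polysome Ctrl and Polysome siRNAG5. Silencing was partial and used 1 siRNA sequence in 1 cell line.

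Zinc finger proteins of the C2H2 type carry arrays of small folds, each held by a zinc ion, that read DNA bases in the major groove. Many of them, above all on chromosome 19, also carry a KRAB domain, which recruits TRIM28 and through it the methyltransferase SETDB1 and the HP1 proteins to form repressive chromatin, often on transposable elements. The genes multiplied by local duplication, so that they lie in clusters and resemble each other in sequence.

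The repeated unit can be seen in the coding sequence of 4 members that the results below turn on. Each line gives the first finger that is followed directly by another finger, 84 bases from the first cysteine codon to the next finger, read from GRCh38 on the strand of the gene, with the 21 bases of the linker between fingers in capitals.
ZNF146 (chr19:36236660-36236743, plus strand): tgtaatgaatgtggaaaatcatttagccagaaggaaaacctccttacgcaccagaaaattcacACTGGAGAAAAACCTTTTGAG
ZNF480 (chr19:52321947-52322030, plus strand): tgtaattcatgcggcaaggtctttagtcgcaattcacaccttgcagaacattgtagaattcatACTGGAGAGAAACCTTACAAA
ZNF28 (chr19:52800777-52800860, minus strand): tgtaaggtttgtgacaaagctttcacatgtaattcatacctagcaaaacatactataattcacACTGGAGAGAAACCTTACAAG
ZNF468 (chr19:52841478-52841561, minus strand): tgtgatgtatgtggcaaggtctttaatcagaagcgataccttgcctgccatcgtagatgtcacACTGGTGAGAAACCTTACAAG

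These 84-base units were identical at 60.7 to 75% of positions between pairs of the 4 members, with ZNF468 and ZNF480 the most alike. Over all 183 members, 1150 of 1913 adjacent finger pairs (60.1%) were joined by the consensus linker. This repetition bears on the counts, because reads that aligned to several places were left out of them. With words of 100 bases, the read length, 111 members shared no word with another annotated transcript and 24 shared over 10% of their words, up to 56.1% in ZNF490. In addition, 26 members had over 10% of their exon bases under another gene on the same strand, where a read is assigned to neither. Values of such members are uncertain. Of those named below they are ZNF8, ZNF358, ZNF417, ZNF552, ZNF559, ZNF580, ZNF587 and ZNF607.

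The 183 members had a median of 12 fingers per protein, from 1 in ZNF428 to 32 in ZNF91. A KRAB letter pattern was found in the translated coding sequence of 151 members and not found in 32, which does not show that a domain is absent there. Members with the pattern had longer transcripts, with a median of 4096 bases against 3023, and a lower GC content, with a median of 41.9% against 62.1%. Grouping members with gaps of at most 500 kb gave 22 clusters, of which 10 held 5 or more members. The largest was cluster 22 with 36 members (chr19:57191500-58481230), followed by clusters 13 and 20 with 26 members each (chr19:36182276-37817300 and chr19:51571283-53580269).

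The members were mostly scarce mRNAs. Levels are in reads per kilobase of transcript per 1000000 reads of the library size scaled by TMM (RPKM). Their median level in Input Ctrl was 0.537, against 2.90 over 12571 protein-coding genes with the same minimum of reads, and 22.5% of those genes lay below the member median. Members with the KRAB pattern had a median of 0.439 RPKM and those without it of 2.01 RPKM. All 8 members with the highest levels were without the pattern.

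**Figure D1:**
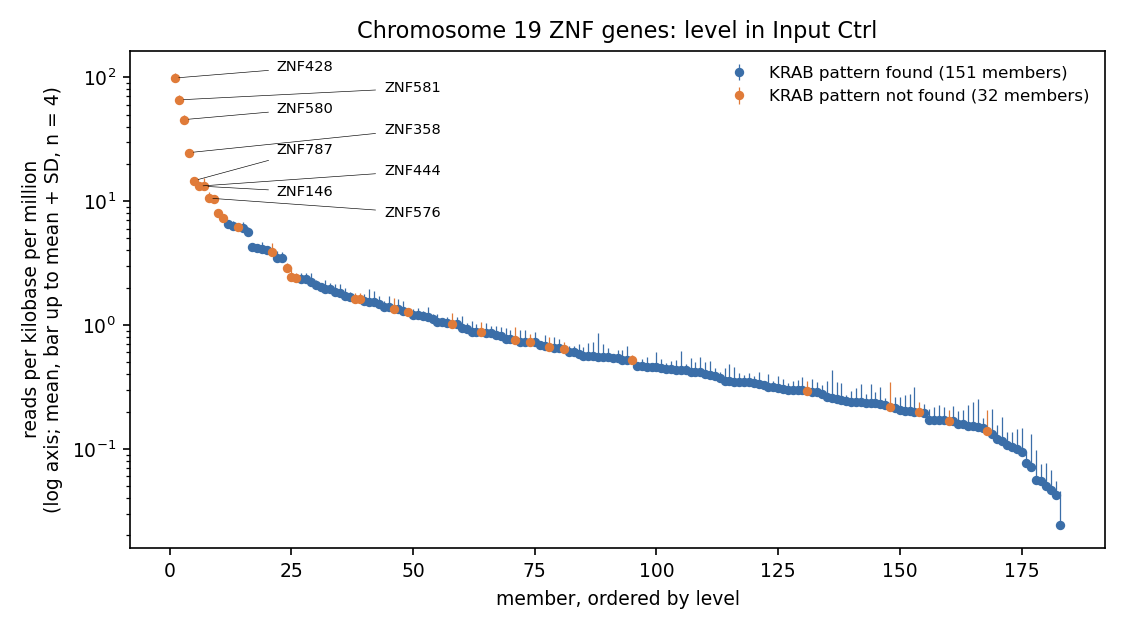
Level of each of the 183 members in Input Ctrl, in RPKM on a log axis, ordered from highest to lowest (point, mean of 4 libraries; bar, up to mean plus SD; colour, KRAB pattern found or not). The curve starts at ZNF428 with 98.5 RPKM and falls to under 0.1 RPKM, and the first points are of members without the KRAB pattern.

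ZNF428, the most abundant member, measured 98.5 ± 8.96 RPKM in Input Ctrl (SD, n = 4). ZNF581 measured 65.7 ± 6.74 RPKM and ZNF580, an overlapping gene on the same strand, 45.5 ± 3.63 RPKM. These 3 levels did not overlap, and each stood above that of ZNF358 at 24.6 ± 1.48 RPKM. ZNF787 (14.6 ± 0.716 RPKM), ZNF444 (13.2 ± 0.134 RPKM) and ZNF146 (13.2 ± 2.11 RPKM) followed, of which ZNF146 overlapped the other two, and ZNF576 was at 10.6 ± 1.25 RPKM. ZNF580 had 13.2% of its exon bases under another gene and ZNF358 had 21.2%, so their levels are the less certain ones.

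Members chosen for a well-known role ranged from ZNF146, described among the highest levels above, to scarce mRNAs. ZNF274, which brings SETDB1 to the 3′ ends of zinc finger genes, measured 4.23 ± 0.201 RPKM in Input Ctrl. ZNF420, known as a brake on p53-dependent apoptosis, measured 1.11 ± 0.114 RPKM. ZNF91, a repressor of SVA and LINE-1 retrotransposons, was at 0.297 ± 0.0805 RPKM and ZNF331, an imprinted gene, at 0.148 ± 0.029 RPKM (SD, n = 4 each). ZNF417 and ZNF587, near-identical paralogs that bind endogenous retroviruses of the HERV-K family, measured 0.116 ± 0.0663 and 0.234 ± 0.053 RPKM, and since they shared 23.5 and 14.7% of their words, reads of one can be lost through the other. ZNF93, ZNF208 and ZNF43, with 3, 2 and 3 reads in all libraries together, did not reach the minimum.

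Each library held 11145324 to 24511299 reads assigned to genes. Of the reads listed in the files, 4.88 to 6.04% in Input and 21.2 to 42.4% in Polysome mapped to several places, so the fractions differed in a quantity that removes reads of repeated sequences. GEMIN5 itself measured 15.9, 18.9, 16.01 and 20.7 reads per 1000000 reads of the TMM library size (CPM) in Input Ctrl and 7.46, 6.51, 6.23 and 6.68 in Input siRNAG5. In Polysome it was at 5.50, 7.21, 7.76 and 9.28 CPM in Ctrl and 2.10, 3.08, 3.05 and 2.35 in siRNAG5. The groups did not overlap in either fraction, with a log2 FC (fold change) of -1.40 in Input and -1.44 in Polysome, and edgeR called it lower in both. Of 5 markers of HEK293 cells, 4 were over 1 CPM on average in Input and 5 in Polysome. Of 8 liver genes such as ALB and APOB, the summed level was 122.2 and 106.4 CPM in Input Ctrl 3 and 4 and 65.3 to 135.0 CPM in the 4 Polysome Ctrl libraries, against 0.330 to 2.29 CPM in the other 10 libraries, in each of which 4 to 6 of the 8 genes were at 0. Polysome Ctrl 1, siRNAG5 1 and siRNAG5 4 were known from earlier work on these counts to stand apart from the other Polysome libraries across all genes.

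The size of the members' summed level in Polysome relative to Input depended on the scaling. Their summed share of gene reads was 0.0763 to 0.0828% in the Input Ctrl libraries and 0.0830 to 0.0874% in Input siRNAG5, against 0.115 to 0.150% in Polysome Ctrl and 0.142 to 0.174% in Polysome siRNAG5. Input and Polysome libraries did not overlap in this share, whose mean was 1.68 times as high in Polysome in Ctrl and 1.86 times in siRNAG5. With TMM library sizes, the scaling of the RPKM and CPM values above and of the main analysis below, the summed level was 1031 to 1061 CPM in Input Ctrl and 1184 to 1224 CPM in Polysome Ctrl, a ratio of means of 1.15 without overlap. In siRNAG5 it was 1000 to 1072 CPM in Input and 1058 to 1109 CPM in Polysome, which overlapped, with a ratio of 1.05. In bulk RNA of this kind, fewer cells with a transcript and less of it per cell cannot be told apart, and each value is relative to all other counted RNAs.

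The first comparison asked how each member was distributed between Polysome and Input, in Ctrl and in siRNAG5 cells. Of 183 members, 179 had enough reads for the test, and the median log2 FC of Polysome over Input was 0.31 in Ctrl, where that of all 14958 genes tested was -0.04. In Ctrl, 48 members were higher in Polysome, which is 26.8% of those tested against 19.4% of all genes. There were 5 members lower, or 2.79% against 18.2% of all genes. In siRNAG5 cells the median was 0.29 beside -0.12 over all genes, with 56 members higher (31.3%, background 21.6%) and 7 lower (3.91%, background 25.4%). A gene was counted as higher or lower at a Benjamini-Hochberg adjusted p under 0.05 from edgeR's quasi-likelihood test and a log2 FC beyond 0.5. The filter on low counts keeps a gene that is high enough in 1 of the 4 groups, so a scarce gene kept through Polysome had to be higher there, and these counts favour that direction. Of the 179 members, 16 did not pass the filter within Input alone, of which 6 were called higher in Ctrl, 9 in siRNAG5 and none lower. In a fit of the genes that passed within each fraction, an analysis added after the data were seen, 44 of 163 members were higher (27.0%, background 19.8%) and 5 lower (3.07%, background 18.1%) in Ctrl. In siRNAG5 48 were higher (29.4%, background 21.6%) and 7 lower (4.29%, background 25.4%). The libraries of the 2 fractions did not overlap in 38 of the 48 higher members in Ctrl (79.2%, against 83.9% of all higher genes) and in 47 of the 56 in siRNAG5 (83.9%, against 89.2%). They did not overlap in any of the lower members, against 91.6% and 87.3% of all lower genes without overlap.

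The ZNF genes of other chromosomes gave 89 higher and 7 lower of 225 tested in Ctrl, and 89 and 11 in siRNAG5, with medians of 0.38 in both. Other protein-coding genes of chromosome 19 gave 96 higher and 148 lower of 698 in Ctrl and 87 and 244 in siRNAG5, with medians of -0.17 and -0.35. With offsets for transcript length and GC content, the split became 38 higher (21.2%, background 18.3%) and 4 lower (2.23%, background 17.2%) in Ctrl, with a median of 0.17. In siRNAG5 it became 35 higher and 17 lower, with a median of 0.10, and the share of higher members was then 19.6% beside 19.7% of all genes, and of lower members 9.50% beside 23.4%. Without Input Ctrl 3 and 4, the Input libraries that hold liver genes, 34 of 183 members were higher in Ctrl (18.6%, background 15.8%). In that fit 3 were lower (1.64%, background 13.35%), with a median of 0.31.

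**Figure D2:**
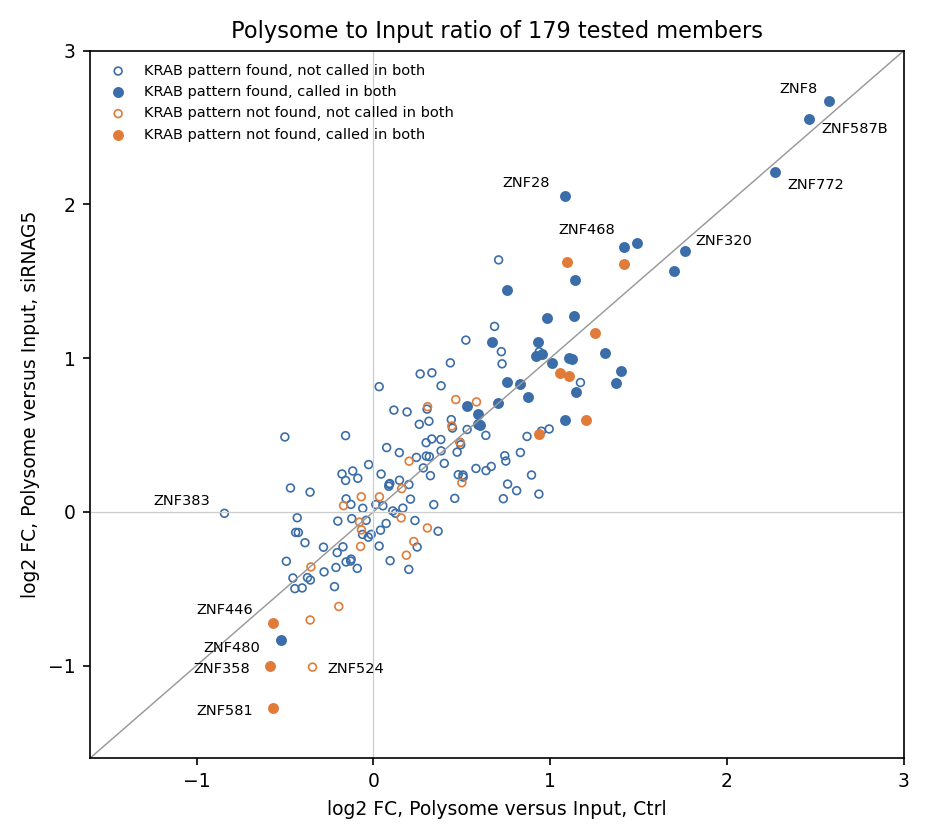
Log2 FC of Polysome over Input for the 179 tested members in Ctrl (horizontal) and in siRNAG5 cells (vertical), with the line of equal values (filled points, called in the same direction in both treatments; colour, KRAB pattern found or not). Most points lie right of and above 0, with ZNF8, ZNF587B and ZNF772 at the upper end and ZNF581, ZNF358, ZNF446 and ZNF480 at the lower end.

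Of the higher members, 39 were called in both treatments, which is 81.2% of those of Ctrl and 69.6% of those of siRNAG5. Across the 179 members, the log2 FC in Ctrl and in siRNAG5 correlated with a Spearman coefficient of 0.82, given as a description since the 2 rest on one fit over all 16 libraries and members share sequence and length.

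The largest log2 FC in favour of Polysome belonged to scarce mRNAs with the KRAB pattern and long 3′ untranslated regions. Of those named here, ZNF8, ZNF587B, ZNF772, ZNF320 and ZNF417 passed the filter through Polysome alone, so their values and their rank are a description, while ZNF468, ZNF28 and ZNF587 also passed it in Input. ZNF8 measured 0.298, 0.524, 0.445 and 0.284 CPM in Input Ctrl and 2.58, 1.92, 1.84 and 3.38 CPM in Polysome Ctrl. In siRNAG5 it measured 0.599, 0.470, 0.498 and 0.158 CPM in Input and 3.43, 2.77, 2.97 and 1.799 CPM in Polysome. Its log2 FC was 2.58 in Ctrl (SE 0.37) and 2.67 in siRNAG5 (SE 0.32). The filter favoured this direction, so no p-value is given. ZNF8 shares 18.8% of its words with the read-through gene ZNF8-ERVK3-1, so its level is uncertain.

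ZNF587B, a relative of ZNF587 in the same cluster, measured 0.398, 0.898, 0.356 and 0.663 CPM in Input Ctrl and 2.92, 3.23, 3.35 and 3.70 CPM in Polysome Ctrl. It was at 0.266, 0.604, 0.398 and 0.473 CPM in Input siRNAG5 and 3.28, 1.96, 2.85 and 2.35 CPM in Polysome siRNAG5. Its log2 FC was 2.46 (SE 0.29) in Ctrl and 2.56 (SE 0.28) in siRNAG5, again in the direction that the filter favoured. ZNF772 followed with 0.299 to 0.497 CPM in Input Ctrl and 1.33 to 2.60 CPM in Polysome Ctrl, a log2 FC of 2.27 (SE 0.36), and with 2.21 (SE 0.29) in siRNAG5. ZNF8, ZNF587B and ZNF772 all lie in cluster 22, and their neighbours ZNF417 and ZNF587 were also called higher, with log2 FC of 1.13 (SE 0.34) and 1.11 (SE 0.24) in Ctrl. The filter favoured this direction for ZNF417 too. In the whole cluster, 12 of 36 members were higher in Ctrl (background 19.4%) and 9 in siRNAG5 (background 21.6%). Its medians of 0.32 and 0.36 stood beside 0.31 and 0.29 over all members tested. Without Input Ctrl 3 and 4, ZNF417 was at 0.75 in Ctrl with an adjusted p of 0.161 from edgeR.

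In cluster 20, 10 of 26 members were higher in Ctrl (background 19.4%) and 12 in siRNAG5 (background 21.6%). Among them were ZNF468, ZNF320 and ZNF28, which the rule for named members selected. ZNF468 measured 1.09, 1.796, 1.16 and 1.8 CPM in Input Ctrl and 4.16, 2.95, 5.64 and 3.78 CPM in Polysome Ctrl, without overlap, a log2 FC of 1.49 (SE 0.26, adjusted p = 0.00014 from edgeR). In siRNAG5 cells its log2 FC was 1.75 (SE 0.27, adjusted p = 2.08e-05 from edgeR). ZNF320 had a log2 FC of 1.77 (SE 0.42) in Ctrl and 1.70 (SE 0.38) in siRNAG5, with Input Ctrl libraries that ranged from 0.0948 to 0.898 CPM and Polysome Ctrl libraries from 1.17 to 2.05 CPM. The spread within Input was wide, and the filter favoured this direction for ZNF320. ZNF28 rose by a log2 FC of 1.08 (SE 0.21) in Ctrl and 2.06 (SE 0.22) in siRNAG5. The calls of ZNF468 in both treatments and of ZNF28 in siRNAG5 held under every alternative analysis. ZNF8, ZNF587B, ZNF772 and ZNF320 were not kept by the filter within each fraction. Alternatives that kept them therefore do not check that selection. Precision in Input was set by few reads: the 4 Input Ctrl libraries together held 18 reads of ZNF8, 27 of ZNF587B, 18 of ZNF772, 22 of ZNF320, 67 of ZNF468 and 91 of ZNF28, and the Polysome Ctrl libraries 95 to 243.

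**Figure D3:**
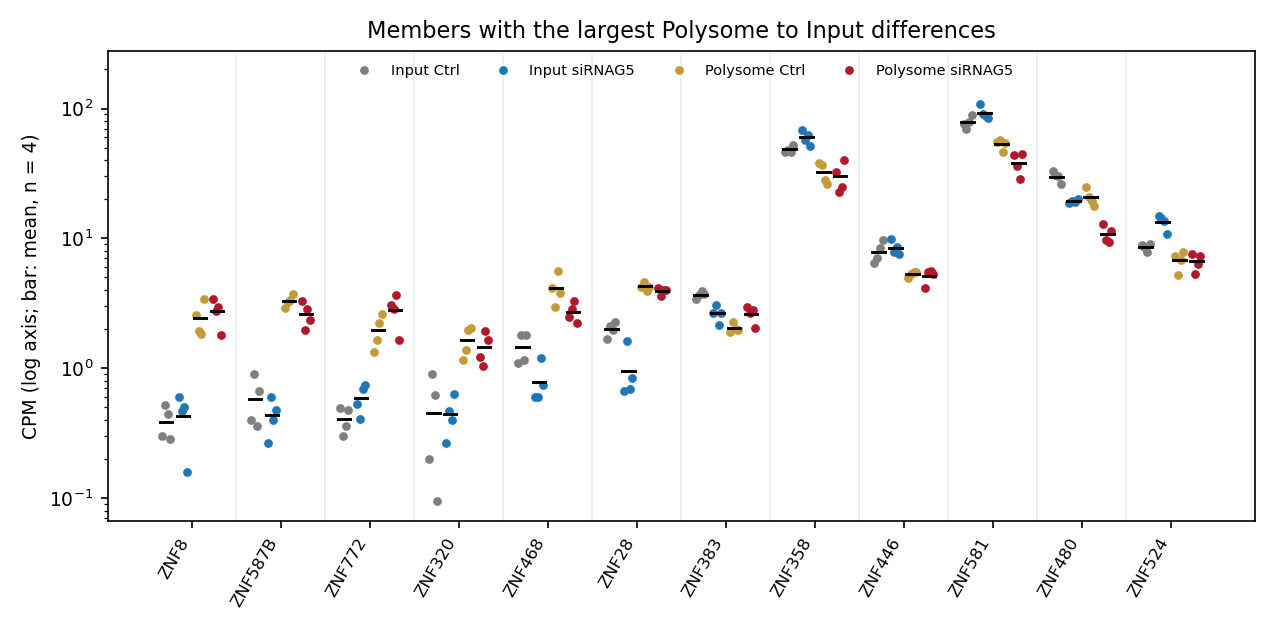
CPM in each of the 16 libraries, on a log axis, for the members named for the largest Polysome to Input differences (points, libraries; bar, mean of the 4 libraries of a group; colour, group). From ZNF8 to ZNF28 the Polysome points lie above the Input points, from ZNF358 to ZNF524 they lie below within each treatment, and for ZNF383 they lie below in Ctrl and overlap in siRNAG5.

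ZNF146 was the exception among abundant members. It encodes a small protein of fingers only and is amplified in some tumours. It measured 54.6, 41.8, 40.0 and 40.0 CPM in Input Ctrl and 109, 98.4, 138 and 124.8 CPM in Polysome Ctrl, a log2 FC of 1.42 (SE 0.15, adjusted p = 4.02e-07 from edgeR). In siRNAG5 it measured 31.6, 40.6, 39.4 and 39.3 CPM in Input and 94.0, 132, 133 and 103 CPM in Polysome, a log2 FC of 1.61 (SE 0.15, adjusted p = 4.04e-08 from edgeR). All Polysome libraries lay above all Input libraries. Of the other 7 most abundant members, none was higher in Polysome in either treatment.

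The members that were lower in Polysome were few, mostly short and GC-rich, and several were among the most abundant. ZNF581 measured 76.4, 69.8, 79.2 and 89.2 CPM in Input Ctrl and 54.8, 57.3, 46.2 and 54.4 CPM in Polysome Ctrl. In siRNAG5 it measured 109, 91.4, 87.1 and 83.8 CPM in Input and 43.8, 36.1, 28.7 and 44.5 CPM in Polysome. The fractions did not overlap, with log2 FC of -0.56 (SE 0.14, adjusted p = 0.00215 from edgeR) and -1.28 (SE 0.14, adjusted p = 2.79e-07 from edgeR). ZNF358 had a log2 FC of -0.58 (SE 0.16) in Ctrl and -1.005 (SE 0.16) in siRNAG5, and ZNF446 of -0.57 (SE 0.16) and -0.72 (SE 0.15). With offsets for length and GC content, the log2 FC in Ctrl were -0.18, -0.40 and -0.36 for ZNF581, ZNF358 and ZNF446, which no longer met the call. In Ctrl the call was also lost without Input Ctrl 4 for ZNF581 (-0.50, just inside the limit) and ZNF446 (-0.46), without Polysome Ctrl 4 for ZNF358 (-0.49), and without Input Ctrl 3 and 4 for all 3.

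ZNF480 was the only member with the KRAB pattern called lower in both treatments. It measured 32.9, 30.5, 29.97 and 26.1 CPM in Input Ctrl against 25.1, 20.9, 19.5 and 17.6 CPM in Polysome Ctrl, and 18.9, 19.3, 18.97 and 19.9 CPM against 12.8, 9.78, 9.44 and 11.4 CPM in siRNAG5. The Polysome libraries lay below the Input libraries in both treatments, with log2 FC of -0.52 (SE 0.13, adjusted p = 0.00225 from edgeR) and -0.83 (SE 0.13, adjusted p = 2.04e-05 from edgeR). Leaving out Input Ctrl 1, Polysome Ctrl 3 or Polysome Ctrl 4 brought its log2 FC in Ctrl to -0.47, -0.49 or -0.45, inside the limit of 0.5. ZNF383 fell in Ctrl, from 3.38, 3.67, 3.91 and 3.69 CPM to 1.92, 2.27, 2.01 and 1.97 CPM (log2 FC -0.84, SE 0.18, adjusted p = 0.000936 from edgeR), and had a log2 FC of -0.01 (SE 0.17) in siRNAG5. ZNF524, ZNF296 and ZNF428 fell in siRNAG5, with log2 FC of -1.01 (SE 0.15), -0.70 (SE 0.17) and -0.62 (SE 0.13), where their log2 FC in Ctrl were -0.34, -0.36 and -0.20. With offsets, ZNF524 and ZNF428 were at -0.40 and -0.056 in siRNAG5 and lost the call. The difference between the treatments itself is tested in the last comparison.

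Transcript features varied with the Polysome to Input ratio. Among the longer 50% of member transcripts, 34 of 89 were higher in Polysome in Ctrl and 2 were lower, against 14 and 3 of 90 among the shorter. In siRNAG5 the counts were 38 and 1 against 18 and 6. Of all genes tested, 19.4% were higher and 18.2% lower in Ctrl, and 21.6% and 25.4% in siRNAG5. With the KRAB pattern, 41 of 147 were higher and 2 lower in Ctrl, and without it 7 and 3 of 32. In siRNAG5 the counts were 46 and 1 with the pattern and 10 and 6 without it, so that the shares of higher members were alike there. Across the 179 members, the log2 FC in Ctrl correlated with transcript length (Spearman 0.39), with the length of the 3′ untranslated region (0.35) and with the number of fingers (0.23), and with GC content at -0.13. In siRNAG5 the coefficients were 0.43, 0.41, 0.26 and -0.21 in that order. The 6 members called higher in Ctrl that passed the filter through Polysome alone were all among the longer transcripts. All 6, and all 9 such members in siRNAG5, had the KRAB pattern. The filter thus favoured higher counts on those sides, and the coefficients include these members. These counts and coefficients are descriptions across genes that share libraries and, through duplication, sequence.

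By position, among the 10 clusters of 5 or more members, those of cluster 4 (chr19:9140397-9793180) had the highest median log2 FC of 0.87 in Ctrl and 0.80 in siRNAG5. There 6 of 8 members rose in both treatments (background 19.4% in Ctrl and 21.6% in siRNAG5): ZNF121, ZNF266, ZNF317, ZNF426, ZNF559 and ZNF562. Cluster 16 (chr19:43596392-44500524) had a median of -0.06 in Ctrl and -0.15 in siRNAG5. In each treatment 4 of its 17 members were higher, near the background of 19.4% and 21.6%. In cluster 8, of 9 members tested none was called by edgeR in either treatment, with log2 FC in Ctrl from -0.49 to 0.49. The background for a call in either direction was 37.6% in Ctrl and 47% in siRNAG5.

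**Figure D4:**
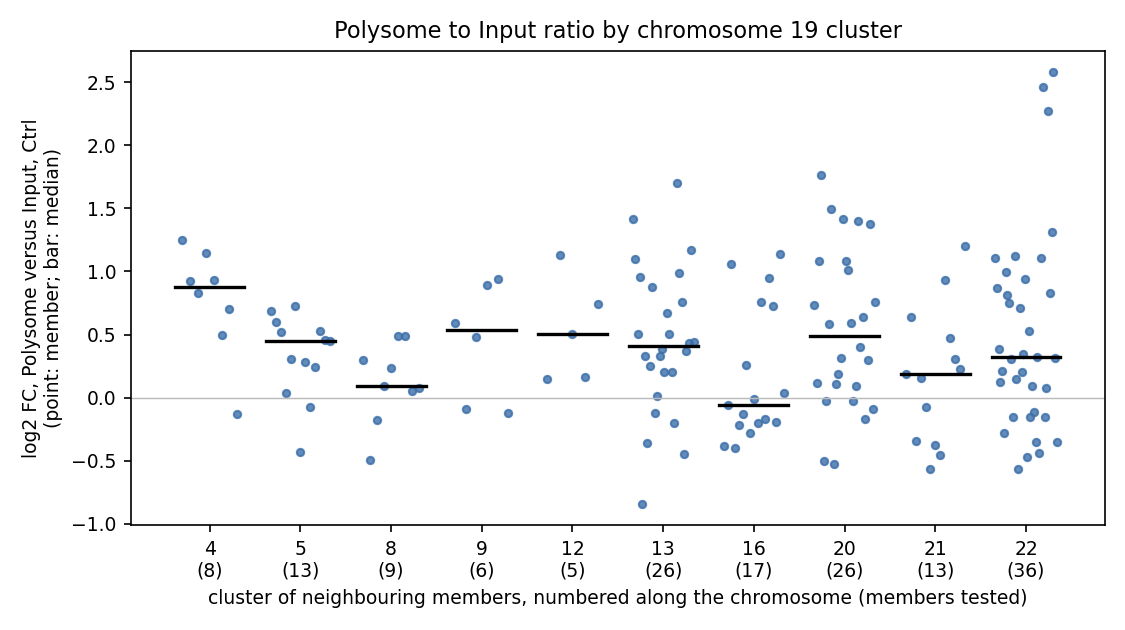
Log2 FC of Polysome over Input in Ctrl for the tested members of the 10 clusters with 5 or more members, numbered along chromosome 19, with the number tested in brackets (point, member; bar, cluster median). Cluster 4 has the highest median, at 0.87, cluster 16 lies at -0.06, and cluster 22 holds the 3 highest points.

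The first bases of the transcript were examined because the study was concerned with TOP mRNAs, which begin with a C followed by a run of pyrimidines and many of which encode ribosomal proteins. The motif was a C at the start followed by 4 letters that are each C or T, on the strand of the gene. Of the members, 166 had a RefSeq promoter entry (GRCh38.p14), and 7 of these (4.22%) carried the motif, as did 4.04% of all 27305 promoters. Those 7 were ZNF358, ZNF426, ZNF446, ZNF561, ZNF57, ZNF581 and ZNF792. The windows of the 3 that were lower in Polysome are given with 20 bases before the start and the 5 bases of the motif in capitals.
ZNF358 (chr19:7516083-7516112, plus strand): cgctgcggccctcggccggcCCCTCtcgct
ZNF446 (chr19:58476332-58476361, plus strand): acctcagccttcgctcaggcCTTTCctacc
ZNF581 (chr19:55643629-55643658, plus strand): cttctctcccttcggcttctCTCTTtcggc

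These 3 were lower in both treatments, and 1 of the 7, ZNF426, was higher in both. The other carriers of the motif were not called. In Ctrl and siRNAG5, the log2 FC were 0.49 and 0.44 for ZNF561 and 0.74 and 0.37 for ZNF792. For ZNF57 they were -0.21 and -0.36. With length and GC offsets, all 3 lower members lost the call in Ctrl, and ZNF446 also in siRNAG5. All 3 also lost it in Ctrl without the Input Ctrl libraries that hold liver genes. Of 156 tested members with a promoter entry and without the motif, 1 was lower and 41 were higher in Ctrl. Over all genes, 29.4% of 582 with the motif and 15.3% of 10301 without it were lower in Polysome in Ctrl, and 40.9% and 21.6% in siRNAG5. The match is a description of annotated letters, and the start used in these cells was not measured.

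The next comparison asked which members changed in the Input mRNA pool when Gemin5 was silenced. Most did not pass the test: of 163 members tested, 11 fell (6.75%, background 6.0% of 14134 genes) and 6 rose (3.68%, background 10.4%). The median log2 FC of siRNAG5 over Ctrl was -0.02 for the members and 0.04 for all genes. The groups did not overlap for 7 of the 11 (63.6%, against 93.9% of all genes called lower), namely ZNF28, ZNF551, ZNF557, ZNF480, ZNF576, ZNF613 and ZNF296. Nor did they for 4 of the 6 (66.7%, against 80.7% of all genes called higher), namely ZNF865, ZNF571, ZNF607 and ZNF524. Called or not, 7.36% of the members tested were lower and 4.29% higher without overlap, against 19.1% and 15.2% of all genes. Overlapping groups were seen for ZNF468, ZNF225, ZNF180 and ZNF552, which fell, and for ZNF577 and ZNF837, which rose.

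ZNF28 showed the largest decrease. It measured 1.69, 2.10, 1.96 and 2.27 CPM in Input Ctrl and 0.666, 1.61, 0.697 and 0.842 CPM in Input siRNAG5, with the second siRNAG5 library close to the lowest Ctrl library. The log2 FC was -1.08 (SE 0.29, adjusted p = 0.00263 from edgeR). In Polysome the corresponding values were 4.25, 4.60, 3.96 and 4.25 CPM in Ctrl and 4.15, 3.62, 4.00 and 3.97 CPM in siRNAG5, which overlapped, with a log2 FC of -0.07 (SE 0.17).

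ZNF468 is the neighbour of ZNF28, and their annotated starts lie within the same promoter. The RefSeq promoter of ZNF468 is shown for that reason (GRCh38.p14, chr19:52857599-52857869, minus strand), with capitals at the RefSeq start of ZNF468 and, 19 bases further, at the GENCODE start of ZNF28. GENCODE places the start of ZNF468 at 52857649, upstream of the RefSeq start at 52857619, and that of ZNF28 at 52857600.
ZNF468 promoter: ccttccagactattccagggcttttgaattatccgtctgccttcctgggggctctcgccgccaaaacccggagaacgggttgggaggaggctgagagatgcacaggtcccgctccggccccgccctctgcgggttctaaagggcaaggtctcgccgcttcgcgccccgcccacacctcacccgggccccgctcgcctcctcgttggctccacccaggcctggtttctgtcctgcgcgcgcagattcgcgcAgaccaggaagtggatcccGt

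In Input, ZNF468 fell from 1.09, 1.796, 1.16 and 1.8 CPM in Ctrl to 0.599, 0.604, 1.20 and 0.736 CPM in siRNAG5, with a log2 FC of -0.86 (SE 0.31, adjusted p = 0.0292 from edgeR). The third siRNAG5 library lay within the range of Ctrl. In Polysome its log2 FC was -0.57 (SE 0.24, adjusted p = 0.144 from edgeR). ZNF28 and ZNF468 shared 1.93 and 2.00% of their words with each other, so few of their reads could be confused.

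ZNF480 and ZNF576 were the abundant members that fell. ZNF480 went from 26.1 to 32.9 CPM in Input Ctrl to 18.9 to 19.9 CPM in Input siRNAG5, as listed above, a log2 FC of -0.62 (SE 0.09, adjusted p = 8.86e-07 from edgeR). ZNF576 measured 27.8, 31.6, 24.8 and 24.7 CPM in Input Ctrl and 18.6, 18.4, 19.6 and 14.4 CPM in Input siRNAG5, a log2 FC of -0.61 (SE 0.10, adjusted p = 8.97e-06 from edgeR). Every siRNAG5 library of both genes lay below every Ctrl library. ZNF296 measured 12.1, 14.3, 12.3 and 13.6 CPM in Ctrl and 10.3, 8.92, 9.26 and 7.15 CPM in siRNAG5, also without overlap, a log2 FC of -0.55 (SE 0.12, adjusted p = 0.000355 from edgeR). ZNF557 (log2 FC -0.72, SE 0.19), ZNF551 (-0.73, SE 0.27) and ZNF613 (-0.61, SE 0.21) were at 1.82 to 4.42 CPM on average in Ctrl.

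ZNF524 was the member with the firmest increase. It measured 8.95, 8.61, 7.91 and 9.001 CPM in Input Ctrl and 14.8, 14.2, 13.6 and 10.8 CPM in Input siRNAG5, without overlap, a log2 FC of 0.64 (SE 0.12, adjusted p = 4.47e-05 from edgeR). In Polysome it had 5.22 to 7.79 CPM in Ctrl and 5.27 to 7.63 CPM in siRNAG5, a log2 FC of 0.01 (SE 0.19). ZNF865 (log2 FC 0.77, SE 0.27), ZNF571 (0.77, SE 0.27) and ZNF607 (0.69, SE 0.25) were at 1.06 to 1.30 CPM on average in Ctrl, and 22.2% of the exon bases of ZNF607 lie under another gene. None of the 3 met the call in DESeq2, in which 1 member rose (background 8.70%) and 8 fell (4.91%, background 6.06%). With length and GC offsets 13 fell (7.98%, background 5.61%) and 3 rose (1.84%, background 9.78%), and ZNF524 was at 0.495, under the limit. ZNF551 (without Input Ctrl 1 or 3 or Input siRNAG5 2, 3 or 4), ZNF613 (without Input Ctrl 2 or siRNAG5 4), ZNF865 (without Input Ctrl 2 or 3 or siRNAG5 4), ZNF571 (without Input Ctrl 1 or 3 or siRNAG5 3) and ZNF607 (without Input Ctrl 1, 2 or 4 or siRNAG5 1 or 2) each lost the call when a single library was left out, with adjusted p of 0.0509 to 0.143 from edgeR. ZNF296 was at -0.46 without Input siRNAG5 4.

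**Figure D5:**
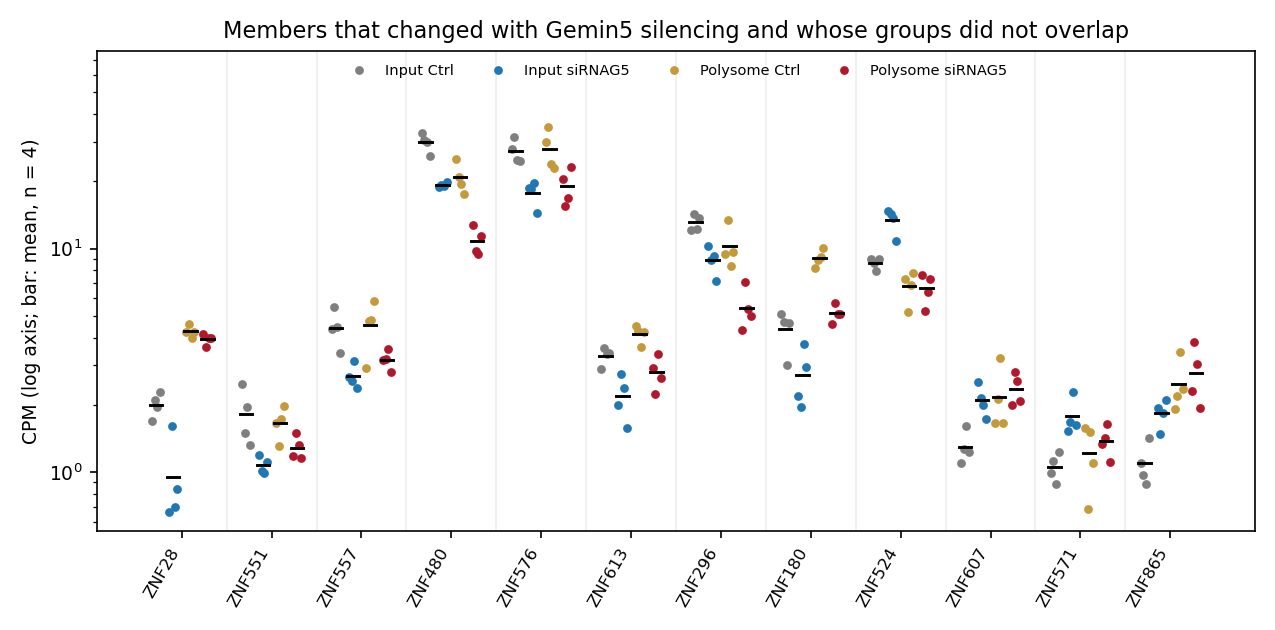
CPM in each of the 16 libraries, on a log axis, for the 12 members called with Gemin5 silencing in Input or Polysome whose groups did not overlap there (points, libraries; bar, mean of the 4 libraries of a group; colour, group). ZNF480 and ZNF296 are lower in siRNAG5 in both fractions, whereas ZNF28 and ZNF524 differ in Input and overlap in Polysome.

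Liver genes moved with these groups, at 0.973 to 122.2 CPM summed in Input Ctrl and 0.872 to 1.10 CPM in Input siRNAG5, and their part in the member changes was not tested. Without Input Ctrl 3 and 4, the libraries that hold them, 7 members fell (4.14%, background 6.6%) and 2 rose (1.18%, background 9.83%). In that fit ZNF28, ZNF557, ZNF480, ZNF576, ZNF296 and ZNF524 kept their calls. Without Input siRNAG5 4, 7 members fell (4.29%, background 6.30%). Without Input Ctrl 2, Input Ctrl 3 or Input siRNAG5 1, 3 rose (background 8.3%, 10.03% and 10.02%).

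In Polysome, silencing changed 3 members. Of 179 tested, ZNF480, ZNF296 and ZNF180 fell (1.68%, background 3.81% of 14420 genes) and none rose (background 3.88%). At an unadjusted p under 0.05 from edgeR, 7 were higher and 12 lower, which is 3.91% and 6.70% of the members tested against 14.3% and 13.2% of all genes. DESeq2 called 4 lower (2.23%, background 7.63%) and none higher (background 5.83%). The median log2 FC was 0.00 for the members and 0.03 for all genes. All 11 members that fell in Input had a log2 FC below 0 in Polysome, from -0.90 to -0.07, and all 6 that rose in Input had one above 0, from 0.01 to 0.56. Of the 11, 3 were called lower in Polysome, and of the 6, 0 were called higher. Across 163 members the 2 changes correlated with a Spearman coefficient of 0.44. The same count over all genes was not made. The methods of the study describe both fractions from the same lysates, so this agreement is a description.

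ZNF480 measured 25.1, 20.9, 19.5 and 17.6 CPM in Polysome Ctrl and 12.8, 9.78, 9.44 and 11.4 CPM in Polysome siRNAG5, a log2 FC of -0.90 (SE 0.17, adjusted p = 0.014 from edgeR). ZNF180 measured 8.16, 8.86, 9.21 and 10.1 CPM in Ctrl and 4.61, 5.70, 5.11 and 5.07 CPM in siRNAG5, a log2 FC of -0.78 (SE 0.15, adjusted p = 0.0162 from edgeR). ZNF296 measured 9.41, 13.5, 8.37 and 9.68 CPM in Ctrl and 4.30, 7.08, 5.36 and 4.98 CPM in siRNAG5, a log2 FC of -0.87 (SE 0.21, adjusted p = 0.0332 from edgeR). The groups did not overlap for any of the 3, as for 98.5% of all genes called lower. Without Polysome Ctrl 2 none of the 3 met the call, with adjusted p of 0.0574, 0.0594 and 0.125 from edgeR and log2 FC of -0.88, -0.77 and -0.69 in that order. In that fit 0.728% of all genes were lower and 0.490% higher. ZNF296 also lost the call without Polysome Ctrl 4, siRNAG5 1 or siRNAG5 3, with adjusted p of 0.0584, 0.0849 and 0.0804 from edgeR. With length and GC offsets 7 members fell (3.91%, background 5.69%) and 1 rose (0.559%, background 6.50%). All 4 Polysome Ctrl libraries hold the liver genes and no Polysome siRNAG5 library does, so their part and that of silencing cannot be told apart in Polysome.

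The last comparison asked whether the change with silencing differed between Polysome and Input. No member met the call, and no gene of 14958 did (background 0 in each direction, edgeR), while DESeq2 called 11 lower and 18 higher genes and no member. At an unadjusted p under 0.05 from edgeR, 2 members were higher and 6 lower, which is 1.12% and 3.35% against 2.60% and 4.66% of all genes. The smallest p among the higher values were those of ZNF383 (0.83, SE 0.25, adjusted p = 0.476 from edgeR), ZNF28 (0.98, SE 0.31, adjusted p = 0.484 from edgeR) and ZNF420 (0.57, SE 0.28, adjusted p = 0.701 from edgeR), as differences of log2 FC. The smallest among the lower values were those of ZNF581 (-0.71, SE 0.19, adjusted p = 0.397 from edgeR), ZNF524 (-0.67, SE 0.22, adjusted p = 0.484 from edgeR) and ZNF444 (-0.47, SE 0.18, adjusted p = 0.545 from edgeR). The different calls of ZNF383, ZNF524, ZNF296, ZNF428 and ZNF28 in single comparisons above are therefore not shown to differ between treatments or fractions.

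Without the 3 Polysome libraries that stand apart, 4 members were lower, on a background of 4.15% of 15343 genes, and none was higher. They were ZNF581 (difference of log2 FC -0.92, SE 0.17, adjusted p = 0.00105 from edgeR), ZNF358 (-0.65, SE 0.17), ZNF524 (-0.80, SE 0.23) and ZNF428 (-0.54, SE 0.15). All 4 lacked the KRAB pattern. This leaves 2 siRNAG5 and 3 Ctrl libraries in Polysome.

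The genes that act with KRAB zinc finger proteins were described from a list of 17. None was called with silencing by edgeR in Input or Polysome, where the shares over all genes are those given above. In Input, DNMT1 (0.48), MORC2 (0.41), ATF7IP (0.40) and SETDB1 (0.38) had an adjusted p under 0.05 from edgeR, with log2 FC inside the limit of 0.5. So did PPHLN1 (-0.37) and CBX3 (-0.29), which were lower. Between the fractions, 6 were lower and 4 higher in Polysome in Ctrl (background 18.2% and 19.4%), and 6 and 5 in siRNAG5 (background 25.4% and 21.6%). TRIM28, the corepressor bound by the KRAB domain, measured 415, 473, 454 and 502 CPM in Input Ctrl and 147, 248, 288 and 293 CPM in Polysome Ctrl, a log2 FC of -0.92 (SE 0.21, adjusted p = 0.00123 from edgeR). In Polysome siRNAG5 it measured 104, 198, 203 and 126 CPM, a log2 FC of -1.42 (SE 0.21) against Input siRNAG5. The 3 Polysome libraries that stand apart had the lowest values of TRIM28 in each treatment. SETDB1, the histone methyltransferase recruited by TRIM28, had a log2 FC of -0.82 (SE 0.15) in Ctrl, and DNMT1, the maintenance DNA methyltransferase, of -0.94 (SE 0.18). CBX1 and CBX5, which encode HP1 proteins, rose by 1.16 (SE 0.10) and 0.99 (SE 0.14), and TASOR, a subunit of the HUSH silencing complex, by 0.90 (SE 0.14).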

How the data were processed

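Stranded libraries of polyadenylated RNA were aligned by the authors to GRCh38 with STAR 2.5.3a, per the labels, and QoRTs was used to count reads on Ensembl genes. The deposited values are raw counts, whole numbers without scaling, with 1 column for each library. Lines for reads with several alignments, without a gene or with more than 1 gene were dropped before library sizes were computed. Gene reads numbered 11145324 to 24511299 in a library, and genes with few reads are the least precise. Of 58302 identifiers, 57532 were named with GENCODE v44, which also gave coordinates, transcripts and coding sequences. The KRAB pattern and fingers were searched in translated GENCODE coding sequences, in place of the planned RefSeq proteins.

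Counts were fitted in R 4.3.3 with edgeR 4.0.16 (filterByExpr, TMM, robust quasi-likelihood test), over the 8 libraries of a fraction for silencing and over all 16 for the other comparisons, with Benjamini-Hochberg adjustment over all genes tested. The filter keeps a gene that is high enough in 1 group. Members and lists were chosen with earlier results of these data known, and the motif at transcript starts after the member values were seen. Named members were called ones with the largest log2 FC and no overlap between groups (up to 8 per direction for silencing, 5 for fractions), the 3 smallest p per direction for the difference of changes, the 8 highest levels, and 10 genes of known role, 3 of which are no members. Other called members, the members of cluster 4 and ZNF57, ZNF561, ZNF792 and ZNF490 were named after their values were seen.

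Alternatives were DESeq2 1.42.0, RLE size factors, no filter, a block on the replicate number, length and GC offsets, other sets of libraries in the fit, each library left out in turn and, added after the data were seen, the filter applied within each fraction. Scripts were tested on simulated counts. Sequences come from GRCh38 and from RefSeq promoters, where ZNF28 has no entry. Python 3.11.15 with pandas 2.3.3, numpy 2.4.6 and matplotlib 3.10.9 made summaries and plots.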

Additional observations from a re-analysis of the deposited data

Results flagged for a closer look

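In 5 of 132 groups of 4 libraries, over the members named by rule and the summed share of gene reads of all members, 1 library lay far from the other 3 (its gap over the range of the group passed the critical value of Dixon's test), where chance gives about 1 in 20. ZNF146 was at 54.62 CPM in Input Ctrl 1, above 39.99 to 41.76 CPM in the other 3, and at 31.57 CPM in Input siRNAG5 1, below 39.34 to 40.6 CPM. ZNF428 was at 90.3 CPM in Polysome siRNAG5 4, above 61.81 to 66.61 CPM. ZNF446 was at 4.151 CPM in Polysome siRNAG5 1, below 5.35 to 5.567 CPM. ZNF587 was at 4.957 CPM in Polysome Ctrl 4, above 2.998 to 3.126 CPM. Polysome siRNAG5 1 and 4 are 2 of the 3 Polysome libraries that stand apart.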

How the results depend on the processing

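Of 1113 values of named members under the alternatives, 1037 kept their direction and their side of the limits, 58 lost a call, 4 gained one and 14 changed sign. In Input, 1 member rose with silencing in DESeq2 (background 8.70%) and 3 with length and GC offsets (background 9.78%). With all 16 libraries in one fit 1 rose (background 6.62%). Without Input Ctrl 3 and 4, 2 rose (background 9.83%) and 7 fell (background 6.6%). With 1 library left out, 7 to 11 fell (background 4.80 to 6.63%) and 3 to 5 rose (background 8.3 to 10.8%). In Polysome, 7 fell (background 5.69%) and 1 rose (background 6.50%) with offsets (median -0.078). With all 16 libraries in one fit 7 fell (background 10.16%). Without the 3 Polysome libraries apart, 6 fell (background 12.01%) and 3 rose (background 9.003%). With 1 library left out, 0 to 4 fell (background 0.728 to 5.55%). For Polysome against Input in Ctrl, offsets gave a median of 0.17. There 3 members were lower (background 13.35%) and 34 of 183 higher (18.6%, background 15.8%) without Input Ctrl 3 and 4. With 1 library left out, 3 to 7 were lower (background 16.4 to 17.75%). In siRNAG5 the median was 0.35 in DESeq2, 0.35 with no filter, 0.37 with only the 8 libraries compared and 0.41 without the 3 libraries. Offsets gave a median of 0.10 there, with 17 lower and 35 higher (background 23.4% and 19.7%). For the difference of changes, the median was -0.10 with offsets, and 4 members were lower without the 3 libraries (background 4.15%).

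Signs changed with offsets for ZNF428 (0.20) and ZNF580 (0.29) in Ctrl and for ZNF444 (0.11), ZNF580 (0.37) and ZNF787 (0.20) in siRNAG5, all Polysome against Input. ZNF576 changed to -0.087 in Ctrl without Input Ctrl 3 and 4 and to -0.10 in siRNAG5 without the 3 libraries. The cause was not tested. With 1 library left out, ZNF576 ranged from -0.0915 to 0.12, ZNF580 from -0.162 to 0.0078 and ZNF91 from -0.421 to 0.0706 in Ctrl, and ZNF576 from -0.0125 to 0.22 in siRNAG5, none of them called. With the replicate number as a block, 11 members fell and 7 rose in Input (background 5.97% and 10.35%). In Polysome 3 fell and 0 rose (background 3.77% and 2.96%). Against Input, 5 were lower and 45 higher in Polysome in Ctrl (background 18.9% and 18.95%). In siRNAG5 these counts were 7 and 52 (background 26.4% and 21.3%). None changed for the difference (background 0 in each direction). No named call changed. The methods of the study describe Input and Polysome RNA from the same lysates, but the labels do not say that a number marks a lysate. Deviations of same-numbered Input and Polysome libraries correlated between -0.16 and 0.38 in Ctrl and between -0.29 and 0.16 in siRNAG5, and the pairing stays unknown.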
